A study of Homo sapiens with 18 samples.

Results

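The icaritin response of SNT-8 minus that of SNT-16 was measured over 12 of the 18 RNA-seq libraries of the study. Both are established cell lines of NK/T cell lymphoma with the genotype label WT. Each line received DMSO, the vehicle, or icaritin for 12 h, giving SNT-8 with DMSO, SNT-8 with icaritin, SNT-16 with DMSO and SNT-16 with icaritin at 3 libraries each. The other 6 libraries come from SNK-10, another line of this lymphoma. They enter an alternative fit, and the scaling behind the responses of single libraries and the GC and length trends. The dose of icaritin is not given in the sources used here, and no label says that replicates came from separate cultures, so each p-value covers the spread among these libraries alone, which may be technical. The members of the comparison are these 12 libraries, and the readout is every one of 13566 genes that passed a filter on low counts. For each gene the log2 fold change of icaritin over DMSO in SNT-16 was subtracted from that in SNT-8; this difference is called the interaction. A negative interaction arises where a gene fell farther, or rose less, in SNT-8.

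Icaritin is a prenylated flavonoid obtained from icariin, a glycoside of Epimedium herbs. NK/T cell lymphoma grows from cytotoxic lymphocytes that usually carry Epstein-Barr virus and express granzymes and perforin. Interferon gamma is the signature cytokine of such cells. Cyclin E with CDK2 carries cells from G1 into S phase, the mevalonate pathway makes cholesterol under the transcription factor SREBP2, and the proteasome degrades proteins tagged with ubiquitin.

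Total expected counts ran from 9629842 to 10100453 per library, so depth hardly differed between the groups. All 11 NK/T lineage markers were detected in every library, the lowest being CD7 at 5.61 to 19.9 CPM (counts scaled to a common library total) and the highest GZMB at 1284 to 1949. The B cell markers MS4A1, CD79A and CD79B stayed at or below 0.71 CPM, and PAX5 lay at 7.34 to 15.1. Of the epithelial markers, EPCAM was at 0 in all 12 libraries, KRT19 at or below 0.10 CPM and CDH1 at 1.55 to 3.93. The myeloid markers ITGAM, LYZ and CSF1R lay at 14.4 to 23.0, 9.30 to 15.5 and 4.20 to 13.3 CPM, and CD14 at or below 0.20. The 3 fibroblast markers summed to 2.99 to 3.96 CPM in SNT-8 with DMSO, 10.4 to 12.3 with icaritin, 3.02 to 4.23 in SNT-16 with DMSO and 8.30 to 9.13 with icaritin, almost all of it COL1A1. The part of these markers of other cell types in the results was not tested. Replicate 2 of SNT-8 with icaritin stood apart: its chi-square per gene against replicates 1 and 3 was 5.96 and 8.18, while every other pair of replicates lay between 1.37 and 3.07. In it 194 genes were more than 0.5 log2 away from the other two replicates, against 16 to 68 genes in the other icaritin libraries. Results are therefore given with and without this library.

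Most genes answered icaritin alike in both lines. Past an adjusted p of 0.05, 7049 genes changed in SNT-8 (52.0% of those tested; 25.1% rose and 26.9% fell) and 5997 in SNT-16 (44.2%; 21.2% rose and 23.0% fell), in edgeR's quasi-likelihood test with Benjamini-Hochberg adjustment. Of the 4992 genes past the threshold in both lines, 4980 moved in the same direction. Across the 9185 genes of at least 10 CPM, the fold changes of the lines had a Pearson correlation of 0.928, given as a description across genes that are not independent. Over the 8114 genes (59.8%) past the threshold for the mean effect of both lines, 65.2% lay farther from 0 in SNT-8 with all libraries and 60.6% without its replicate 2. Library by library, the share farther from 0 than the SNT-16 mean was 58.4%, 69.7% and 58.0% in SNT-8 replicates 1, 2 and 3.

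Against this shared response, 53 of 13566 genes had an interaction past the threshold (0.391%), 22 of them higher in SNT-8 (0.162%) and 31 lower (0.229%). A further view of the same fit is that 1935 genes had an unadjusted p under 0.05. The differences were small: the median absolute log2 interaction of the 53 genes was 0.40 and the smallest 0.25. Only 1 gene, TMEM183BP, reached a 2-fold difference. It lies under 10 CPM and is a near-identical copy of TMEM183A, so its fold is uncertain. Its call ended with all 18 libraries in the fit (adjusted p = 0.24, edgeR). All 53 were also past the threshold, in the same direction, without replicate 2 of SNT-8 with icaritin, where the count rose to 335 genes (2.47%), 148 higher (1.09%) and 187 lower (1.38%). With upper-quartile scaling the split was 39 higher and 29 lower, and with trends on GC content and transcript length removed it was 16 higher and 36 lower, with 35 of the 53 genes still past the threshold. The call held in each of 12 fits that left out 1 library for 16 genes, among them IFNG, AIM2, CCNE1, CCNE2, ISOC1, MAPK6 and TMEM183BP on the lower side, and CHST6, DUSP5, SERPINB9, LENG8, HIVEP1, XAF1, CCDC88C and KSR1 on the higher side. The other 37 lost it in at least 1 such fit. Limma on log2(FPKM + 1) called only 8 of the 53 genes. They were IFNG, CCNE2, ISOC1, TMEM183BP, DUSP5, SERPINB9, XAF1 and KSR1.

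**Figure D1:**
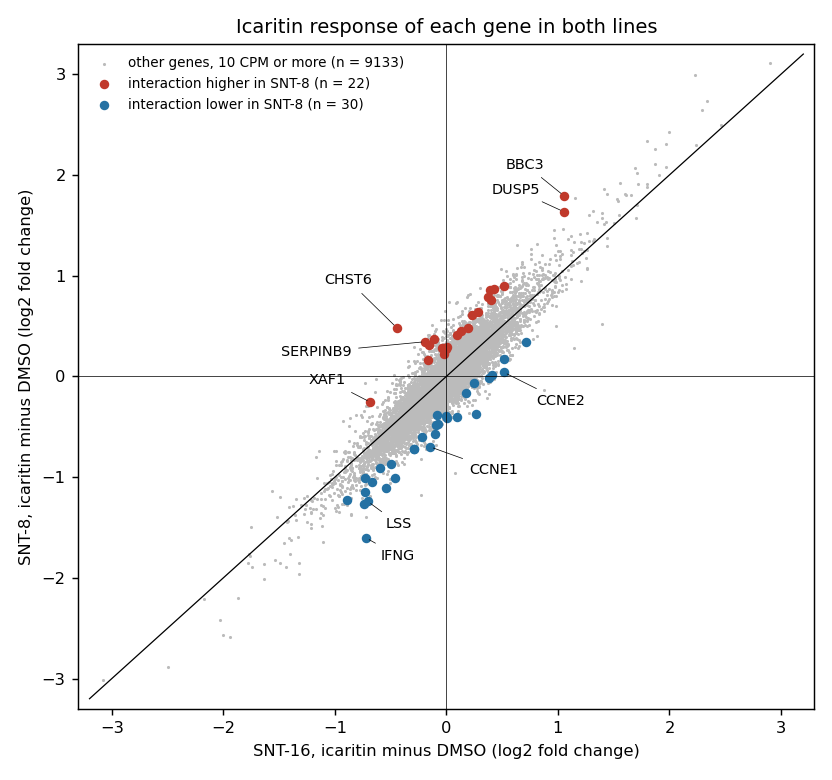
Each point is a gene of at least 10 CPM, placed by its log2 fold change of icaritin over DMSO in SNT-16 (x axis) and SNT-8 (y axis); the diagonal marks equal responses. The genes past the threshold for the interaction (red, 22 higher in SNT-8; blue, 30 lower, since TMEM183BP is under 10 CPM) lie along the edges of the cloud, with IFNG the farthest below the diagonal.

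The direction of each line sorts the 53 genes. Among those lower in SNT-8, 14 fell in both lines and farther in SNT-8, 9 fell past the threshold in SNT-8 alone, 4 rose in SNT-16 alone, 2 rose in both but farther in SNT-16, and 2 moved in opposite directions. Among those higher in SNT-8, 11 rose in both and farther in SNT-8, 6 rose in SNT-8 alone, 4 moved in opposite directions, and XAF1 fell in both but farther in SNT-16. The median absolute log2 fold change of the 53 genes was 0.48 in SNT-8 and 0.29 in SNT-16.

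Promoters are shown for 4 genes on which the account turns. IFNG had the largest negative interaction among genes past the threshold at 10 CPM or more. CCNE1 encodes a cyclin and fell past the threshold in SNT-8 alone. LSS encodes an enzyme and had the largest negative interaction among the cholesterol genes past the threshold. SERPINB9 moved in opposite directions in the lines. Each window runs from 250 bases before to 50 bases after the start site in RefSeq on GRCh38.p14, read 5′ to 3′ on the strand of the gene. IFNG lies at chr12:68159691-68159990 (minus strand), CCNE1 at chr19:29811741-29812040 (plus), LSS at chr21:46228725-46229024 (minus) and SERPINB9 at chr6:2903260-2903559 (minus). Capitals mark matches, on either strand, to 5 motifs searched: TCACNCCAC (sterol regulatory element core), CCAAT, TTTNNCGC (E2F), TGANTCA (AP-1) and TATAAA.
IFNG: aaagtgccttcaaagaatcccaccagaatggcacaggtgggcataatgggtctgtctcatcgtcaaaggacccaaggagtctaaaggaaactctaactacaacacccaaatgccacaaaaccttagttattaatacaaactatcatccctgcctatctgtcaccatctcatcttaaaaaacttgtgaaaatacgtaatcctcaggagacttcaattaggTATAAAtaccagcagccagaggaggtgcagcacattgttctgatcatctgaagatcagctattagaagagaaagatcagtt
CCNE1: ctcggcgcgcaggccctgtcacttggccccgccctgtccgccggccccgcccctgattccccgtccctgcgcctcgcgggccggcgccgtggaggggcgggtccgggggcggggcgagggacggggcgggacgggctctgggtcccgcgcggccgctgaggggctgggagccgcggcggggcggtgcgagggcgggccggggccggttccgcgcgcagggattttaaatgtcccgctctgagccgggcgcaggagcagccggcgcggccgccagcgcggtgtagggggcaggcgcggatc
LSS: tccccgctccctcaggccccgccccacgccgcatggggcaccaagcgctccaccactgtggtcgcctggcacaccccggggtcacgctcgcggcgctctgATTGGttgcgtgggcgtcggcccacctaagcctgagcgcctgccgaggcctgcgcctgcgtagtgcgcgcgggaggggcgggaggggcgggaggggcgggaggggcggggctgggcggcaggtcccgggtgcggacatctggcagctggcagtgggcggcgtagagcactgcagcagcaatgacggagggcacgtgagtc
SERPINB9: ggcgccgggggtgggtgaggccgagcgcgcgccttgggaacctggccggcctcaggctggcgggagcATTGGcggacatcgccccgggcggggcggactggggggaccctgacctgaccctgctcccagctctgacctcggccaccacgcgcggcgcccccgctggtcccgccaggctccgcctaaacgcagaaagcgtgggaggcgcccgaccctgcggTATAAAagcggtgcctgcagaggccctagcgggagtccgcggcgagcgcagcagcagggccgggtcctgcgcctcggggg

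IFNG and SERPINB9 each held TATAAA, starting 31 and 30 bases before the start site, a match found in 6.57% of the 15167 windows of tested genes. LSS and SERPINB9 each held CCAAT on the opposite strand, printed as ATTGG, found in 35.5% of those windows. CCNE1 held none of the 5. The shares of the other motifs were 1.05% for the sterol core, 9.77% for E2F and 5.48% for AP-1. Over whole lists, 18 of 23 windows of cholesterol genes held CCAAT and 1 the sterol core, and 23 of 49 windows of G1/S genes held the E2F motif. A match is a description of the letters, not a bound site.

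Interferon gamma had the clearest difference. IFNG was at 179, 175 and 173 CPM in SNT-8 with DMSO and 59.6, 58.8 and 55.4 with icaritin. In SNT-16 it was at 118, 106 and 117 CPM with DMSO and 67.4, 66.7 and 72.6 with icaritin. SNT-8 started above SNT-16 and ended below it, and no pair of the 4 groups overlapped. The log2 fold change was -1.60 in SNT-8 and -0.72 in SNT-16, an interaction of -0.88 (SE 0.08, adjusted p = 9.77e-08, edgeR). It was -0.89 without replicate 2 of SNT-8 with icaritin.

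**Figure D2:**
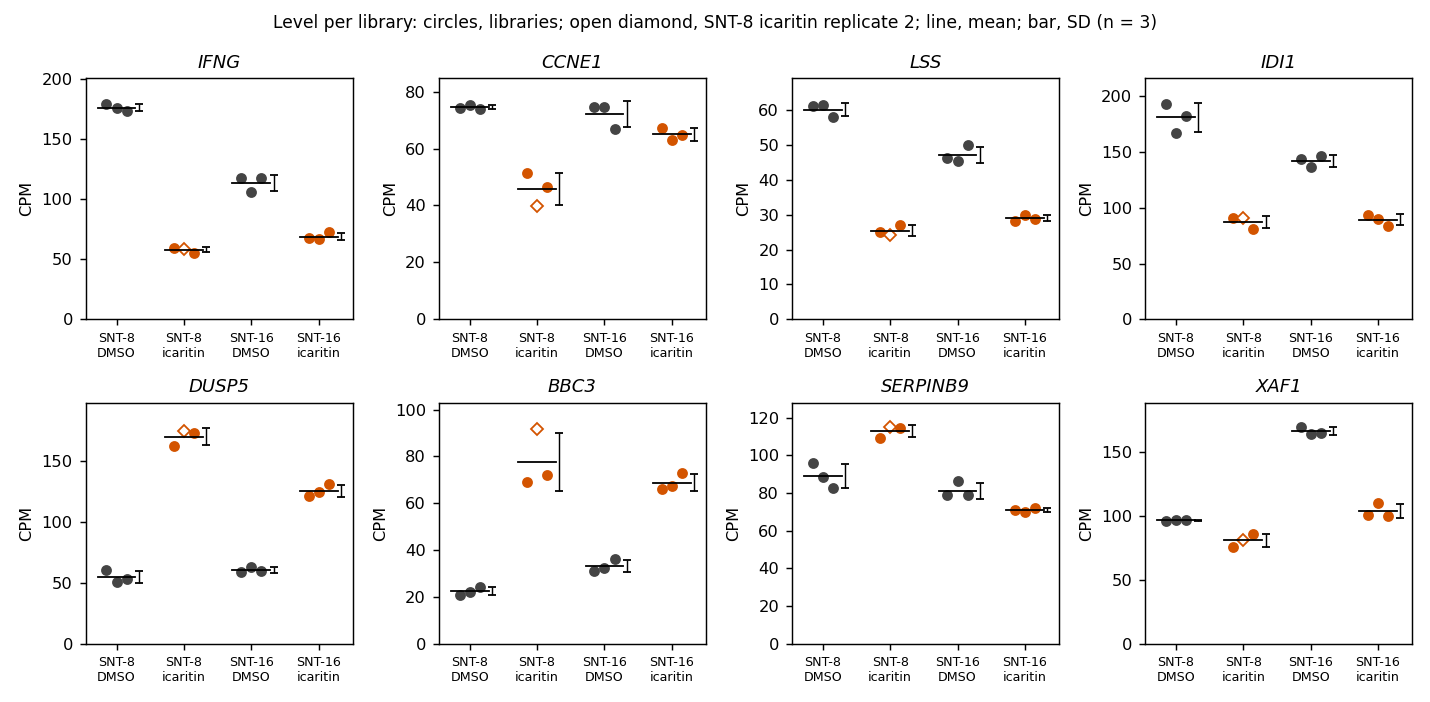
CPM of 8 genes in each of the 12 libraries (y axis from 0; grey, DMSO; orange, icaritin; open diamond, SNT-8 icaritin replicate 2; line and bar, mean and SD, n = 3). IFNG starts higher and ends lower in SNT-8 than in SNT-16, CCNE1 drops in SNT-8 while its SNT-16 groups meet, and SERPINB9 moves up in SNT-8 and down in SNT-16.

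Most other lymphocyte cytokines leaned the same way as IFNG without passing the threshold. The list holds 15 tested genes, of which 11 had an interaction below 0, with a median of -0.27 beside -0.01 for all genes. Of the 15, 12 fell in SNT-8 and 11 in SNT-16, beside 26.9% and 23.0% of all genes. IFNG was the one member past the threshold. LTA, which encodes lymphotoxin alpha, had an interaction of -0.27 (adjusted p = 0.128, edgeR), and -0.32 (adjusted p = 0.0245) without replicate 2. LTB, its membrane partner, stood at -0.29 (adjusted p = 0.114, edgeR).

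The genes of 2 TNF family ligands, TNFSF10 and TNFSF14, fell in both lines and farther in SNT-8, while the lists that hold them did not lean that way. Of 21 death receptor, ligand and caspase genes, 10 had an interaction above 0 and 11 below (median 0.00), and of 13 TNF superfamily ligands and costimulatory receptors, 9 lay above 0 (median 0.05); each list had 1 gene past the threshold. TNFSF10, which encodes TRAIL, was at 389.7, 373 and 377 CPM with DMSO and 231, 179.7 and 213 with icaritin in SNT-8. In SNT-16 it was at 314, 304 and 313 and 219.6, 219 and 221 CPM. Icaritin levels of the lines overlapped, while DMSO levels were higher in SNT-8. The interaction was -0.38 (SE 0.08, adjusted p = 0.0439, edgeR). TNFSF14, which encodes LIGHT, fell in both, with log2 fold changes of -1.15 in SNT-8 and -0.73 in SNT-16 (interaction -0.42, adjusted p = 0.0439, edgeR). AIM2, a cytosolic DNA sensor of the inflammasome, fell in both lines too (-1.01 and -0.46); it overlaps IFI16, whose interaction was 0.10. When 1 library was left out, the TNFSF14 call was lost in 11 of 12 fits (all but that without replicate 2 of SNT-8 with icaritin) and the TNFSF10 call in 9 (all but those without an SNT-8 icaritin library). Their adjusted p then went up to 0.137 and 0.139 in edgeR, and that of TNFSF10 was 0.135 with GC and length trends removed.

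The list of interferon-stimulated genes leaned the other way. Of 48 tested, 36 had an interaction above 0 (75.0%, beside 48.5% of all genes), and the median was 0.09. The one of these 48 past the threshold with all libraries was XAF1, an antagonist of the apoptosis inhibitor XIAP. AIM2 and TNFSF10, both past the threshold and lower in SNT-8, were not in this list. XAF1 was at 96.2, 96.4 and 96.96 CPM with DMSO and 75.5, 80.9 and 85.99 with icaritin in SNT-8, and at 169.7, 164 and 164 and 101, 110 and 100.01 in SNT-16. Its DMSO level was higher in SNT-16, and its fall there was larger, so the icaritin levels lay closer together (interaction 0.42, SE 0.08, adjusted p = 0.00547, edgeR). Without replicate 2 of SNT-8 with icaritin, IFI6, EPSTI1, IRF7 and OAS1 were past the threshold too, at 0.43, 0.55, 0.45 and 0.45. IRF7, the transcription factor that amplifies type I interferon, had fold changes of -0.74 in SNT-8 and -1.14 in SNT-16, and OAS1, which senses double-stranded RNA, had -0.80 and -1.17. IFIT3, another of these antiviral effectors, was past it in the lower direction (-0.26).

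Cholesterol synthesis genes leaned lower in SNT-8. Of 23 tested genes of the pathway, 18 fell in each line, beside 26.9% of all genes in SNT-8 and 23.0% in SNT-16. An interaction past the threshold was found for 3 of the 23, all lower in SNT-8, LSS and IDI1 among them. Interactions lay below 0 for 20 of 23, with a median of -0.24. The exceptions included CYP51A1, the lanosterol demethylase, at 0.35, and SREBF2, which encodes SREBP2 itself, at 0.02; neither was past the threshold. The median response of the list was -0.76, -0.60 and -0.66 in the 3 SNT-8 icaritin libraries and -0.41 in each of the 3 of SNT-16.

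Along the pathway, HMGCS1 makes the precursor of mevalonate. It was at 336, 327 and 349 CPM with DMSO and 193, 261 and 183 with icaritin in SNT-8, where replicate 2 lay above the other two. Its SNT-16 levels were 200, 197 and 195 and 157, 165 and 151 CPM. The interaction was -0.34 (adjusted p = 0.386, edgeR) with that library and -0.52 (adjusted p = 1.42e-06) without it. IDI1, the isomerase of the isoprenoid units, was at 193, 167 and 182 and then 90.4, 90.5 and 80.5 CPM in SNT-8, against 143, 136 and 146 and 93.5, 90.1 and 83.7 in SNT-16. Icaritin levels of IDI1 overlapped between the lines, while its DMSO levels were higher in SNT-8 (interaction -0.38, adjusted p = 0.037, edgeR).

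LSS, which closes squalene epoxide to lanosterol, went from 60.98, 61.4 and 57.9 to 25.01, 24.1 and 27.1 CPM in SNT-8. In SNT-16 it went from 46.1, 45.4 and 49.8 to 28.1, 29.8 and 28.9 CPM. As with IFNG, SNT-8 stood above SNT-16 in DMSO and below it in icaritin (interaction -0.54, SE 0.10, adjusted p = 0.00964, edgeR). Without replicate 2 of SNT-8 with icaritin 10 of the 23 genes were past the threshold, all lower, among them LSS, IDI1, HMGCS1, FDPS, FDFT1, NSDHL, HSD17B7, EBP and INSIG1. The LSS call was lost without SNT-16 icaritin replicate 2 (adjusted p = 0.0595, edgeR), and that of IDI1 in 7 of 12 such fits, with adjusted p up to 0.137, and with all 18 libraries in the fit (0.0547); IDI1 overlaps WDR37.

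Fatty acid synthesis had no gene past the threshold. Of 14 tested genes 11 had an interaction below 0, with a median of -0.16. FASN, the fatty acid synthase, had fold changes of -1.35 in SNT-8 and -1.13 in SNT-16, and SCD, the desaturase, of -0.89 and -0.67. SCD was called without replicate 2 (-0.26, adjusted p = 0.00464, edgeR), as were ELOVL5, an elongase, at -0.23, and FADS2, another desaturase, in the opposite direction at 0.71.

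Cyclin E genes differed between the lines, and the list of G1/S genes leaned lower in SNT-8. Of 44 tested G1/S and replication genes, 19 rose and 8 fell in SNT-8, while 23 rose and 4 fell in SNT-16. Of all genes, 25.1% rose and 26.9% fell in SNT-8, and 21.2% rose and 23.0% fell in SNT-16. Past the threshold for the interaction were 3 of the 44, all lower in SNT-8: CCNE1, CCNE2 and RRM2. CCNE1, which encodes cyclin E1, was at 74.4, 75.3 and 73.8 CPM with DMSO and 51.2, 39.9 and 46.5 with icaritin in SNT-8, with no overlap. SNT-16 libraries held it at 74.5, 74.7 and 66.8 and 67.2, 62.8 and 64.9, and the groups met. The fold change was -0.70 in SNT-8 and -0.15 in SNT-16 (interaction -0.55, SE 0.10, adjusted p = 0.00547, edgeR).

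CCNE2, which encodes cyclin E2, moved in SNT-16. It was at 46.6, 49.04 and 50.7 CPM with DMSO and 68.1, 72.1 and 69.1 with icaritin there, against 60.98, 65.9 and 62.6 and 68.3, 63.6 and 63.01 in SNT-8. The SNT-8 groups overlapped, and those of SNT-16 did not (interaction -0.47, adjusted p = 0.00559, edgeR); CCNE2 overlaps INTS8 and NDUFAF6. RRM2, a subunit of the reductase that makes deoxyribonucleotides, was at 735, 719 and 709.8 and 742, 659.8 and 667 CPM in SNT-8 and at 718, 689 and 709 and 832, 824 and 857 in SNT-16, where it rose (interaction -0.31, adjusted p = 0.0141, edgeR). CENPK, a kinetochore subunit outside the list, had the same pattern, with fold changes of 0.02 and 0.41. FAM111B, a serine protease, fell in SNT-8 (-0.48) and stood at -0.09 in SNT-16. The calls of RRM2, CENPK and FAM111B were lost in 4, 6 and 6 of the 12 fits that left out a library, and that of CENPK with GC and length trends removed (adjusted p = 0.072, edgeR).

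Without replicate 2 of SNT-8 with icaritin, 10 of the 44 genes were past the threshold, all lower. The additional ones were PCNA, the sliding clamp of DNA polymerases, at -0.24, CDK2, the partner of cyclin E, at -0.23, FEN1, the flap endonuclease, at -0.24, POLA1 at -0.22, RFC4 at -0.26, SLBP at -0.24 and CDC6 at -0.29. PCNA illustrates the pattern: it rose from 583, 556 and 559 to 657, 737 and 635 CPM in SNT-8 and from 647, 641 and 651 to 852, 883 and 886 in SNT-16, where the icaritin libraries lay above all those of SNT-8. Over the list, 33 of 44 interactions were below 0 (median -0.08) with all libraries and 35 of 44 without that one.

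Mitotic genes did not show a difference that held. PLK1, the mitotic kinase, was at 252, 257 and 242 CPM with DMSO and 83.6, 43.2 and 91.01 with icaritin in SNT-8. The SNT-16 libraries gave 251, 263 and 249 and 66.5, 78.8 and 80.4. Replicate 2 of SNT-8 with icaritin was the lowest of all 12 libraries, and the other two replicates lay above all SNT-16 icaritin libraries. The interaction was -0.03 (95% interval -0.71 to 0.66, adjusted p = 0.983, edgeR) with it and 0.24 (adjusted p = 0.0908) without it. Of 40 G2/M genes, none was past the threshold in either fit; 31 had an interaction below 0 with that library and 19 without it. The list's median response was -0.44, -0.72 and -0.46 in the SNT-8 libraries and -0.45, -0.42 and -0.38 in those of SNT-16.

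Protein degradation and folding genes leaned lower in SNT-8. All 29 proteasome subunit genes had an interaction below 0, with or without replicate 2 of SNT-8 with icaritin and under each other scaling tried, at a median of -0.12. No single one was past the threshold with all libraries. In SNT-8 27 of the 29 fell and in SNT-16 17, beside 26.9% and 23.0% of all genes. The median response was -0.31, -0.31 and -0.32 in the SNT-8 libraries and -0.22, -0.18 and -0.17 in those of SNT-16. PSMD14, the deubiquitinase of the proteasome lid, was at 123, 114 and 124 and 94.5, 92.4 and 86.4 CPM in SNT-8, with no overlap, and at 102, 99.6 and 113 and 97.9, 100.5 and 99.3 in SNT-16, with overlap (interaction -0.32, adjusted p = 0.061, edgeR). Without that library 6 were past the threshold, all lower: PSMD14 at -0.33, PSMC2 at -0.23, PSMD2 at -0.22, PSMA2 at -0.29, PSMD1 at -0.21 and PSMA4 at -0.24.

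Among 21 heat shock proteins and co-chaperones, 16 fell in each line and 18 had an interaction below 0 (median -0.14). HSPH1, the HSP110 exchange factor, went from 729.7, 719 and 726 to 369.9, 373 and 339 CPM in SNT-8 and from 665, 629 and 649 to 388, 386 and 394 in SNT-16, and was the one member past the threshold (interaction -0.27, adjusted p = 0.037, edgeR; lost in 9 of the 12 fits without a library). DNAJA1 and CHORDC1, co-chaperones of HSP70 and HSP90, joined it without replicate 2, at -0.36 and -0.39.

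Among the genes past the threshold that rose in both lines and farther in SNT-8, BBC3 and DUSP5 had the largest interactions. BBC3, which encodes the pro-apoptotic BH3-only protein PUMA, was at 21.01, 21.9 and 24.2 CPM with DMSO and 69.2, 91.7 and 72.1 with icaritin in SNT-8. The level in SNT-16 was 31.1, 32.3 and 36.01 and 66.2, 67.5 and 72.7. Its DMSO level was lower in SNT-8, and the icaritin levels of the lines overlapped at the low end of SNT-8 (interaction 0.74, SE 0.14, adjusted p = 0.0141, edgeR). Without replicate 2, its highest library, it was 0.61; with GC and length trends removed the adjusted p was 0.136, and the call was lost in 5 of the 12 fits without a library. BBC3 was the one of 24 p53 target genes past the threshold: 20 had an interaction above 0 with replicate 2 and 11 without it. The median response of these targets was 0.81, 1.07 and 0.86 in SNT-8 and 0.79, 0.78 and 0.78 in SNT-16.

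DUSP5, a nuclear phosphatase of ERK, was at 60.7, 50.7 and 52.99 CPM with DMSO and 162, 175 and 173 with icaritin in SNT-8. For SNT-16 the levels were 58.9, 63.3 and 59.9 and 121, 125 and 131. DMSO levels overlapped, and every SNT-8 icaritin library lay above those of SNT-16 (interaction 0.58, SE 0.09, adjusted p = 0.000928, edgeR). KSR1, a scaffold of the RAF-MEK-ERK cascade, rose by 0.64 in SNT-8 and 0.28 in SNT-16. Among 27 AP-1, early growth response and ERK feedback genes, DUSP5 alone was past the threshold, and 18 had an interaction below 0. MAPK6, which encodes the atypical kinase ERK3, fell in SNT-8 (-0.42) and stood at 0.01 in SNT-16 (interaction -0.42, adjusted p = 0.00547, edgeR).

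Cytokine signalling genes were among those higher in SNT-8. Of 25 JAK-STAT and common gamma chain receptor genes, 2 were past the threshold and 16 had an interaction above 0 (64.0%, beside 48.5% of all genes; median 0.06). With GC and length trends removed the list leaned less, with 14 above 0 and 11 below. Its median was then 0.02, and 0.01 also without replicate 2 of SNT-8 with icaritin. STAT5A, the transcription factor downstream of interleukin 2, was at 178, 195 and 184 CPM with DMSO and 211, 237 and 229 with icaritin in SNT-8. Its levels in SNT-16 were 182, 171 and 176 and 172, 173 and 170.1, with overlap (interaction 0.32, adjusted p = 0.037, edgeR). It overlaps STAT5B, whose interaction was 0.06. TYK2, the Janus kinase of interferon and interleukin 12 receptors, rose by 0.45 in SNT-8 and 0.13 in SNT-16, and PIM2, a kinase induced by STAT5, by 0.23 in SNT-8 with -0.03 in SNT-16. Each of these 3 calls was lost in at least 7 of the 12 fits without a library (8 for STAT5A, 7 for TYK2 and 9 for PIM2), and those of STAT5A and TYK2 with GC and length trends removed (adjusted p = 0.0589 and 0.065).

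In 6 of the 53 genes the lines moved in opposite directions, each past the threshold. SERPINB9, the inhibitor that protects cytotoxic cells from their own granzyme B, was at 95.8, 88.7 and 82.7 CPM with DMSO and 109, 115 and 114 with icaritin in SNT-8. In SNT-16 it was at 78.7, 86.2 and 78.9 and 71.1, 70.2 and 72.2. It rose by 0.34 in SNT-8 and fell by 0.19 in SNT-16, and the groups of neither line overlapped (interaction 0.54, SE 0.08, adjusted p = 0.00146, edgeR). Its target, GZMB, had an interaction of 0.12 (95% interval 0.00 to 0.23, adjusted p = 0.355, edgeR), and SERPINB9 was the one of 11 cytotoxic granule genes past the threshold.

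CHST6, a sulfotransferase of keratan sulfate, was at 10.7, 12.7 and 11.1 CPM and then 14.9, 16.4 and 16.96 in SNT-8, and at 15.8, 16.01 and 14.3 and then 11.8, 11.7 and 10.3 in SNT-16. It crossed over, from lower to higher in SNT-8 (interaction 0.93, SE 0.16, adjusted p = 0.00408, edgeR), at the lowest level of the called genes over 10 CPM. LENG8 stood at 0.31 and -0.15, and KMT2B, a histone H3 lysine 4 methyltransferase, at 0.16 and -0.17. In the other direction, CYP19A1, which encodes aromatase, was at 32.4, 33.2 and 33.3 and 30.1, 19.9 and 26.5 CPM in SNT-8 against 32.4, 33.5 and 29.4 and 35.4, 39.9 and 39.4 in SNT-16. Replicate 2 was the lowest SNT-8 icaritin library (interaction -0.64 with it, -0.49 without). ARF4, a GTPase of the Golgi, stood at -0.16 and 0.17. LENG8 overlaps LENG9, KMT2B overlaps IGFLR1, and ARF4 overlaps PDE12; the calls of KMT2B, CYP19A1 and ARF4 were lost in 9, 8 and 9 of the 12 fits without a library. With all 18 libraries in the fit, LENG8, KMT2B and ARF4 were not past the threshold (adjusted p = 0.283, 0.0652 and 0.058, edgeR). In limma on log2(FPKM + 1), SERPINB9 was past it (adjusted p = 0.0238). LENG8, CHST6, KMT2B, CYP19A1 and ARF4 were not (adjusted p = 0.071, 0.103, 0.174, 0.174 and 0.109, limma). KMT2B was not past it with GC and length trends removed either (adjusted p = 0.0973, edgeR).

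The other genes higher in SNT-8 belong to no list used here. HIVEP1, a zinc finger factor that binds NF-kB sites, was at 68.3, 66.6 and 65.3 CPM with DMSO and 116, 132 and 118 with icaritin in SNT-8. The levels in SNT-16 were 74.4, 69.2 and 69.5 and 96.2, 92.7 and 96.7, so that the SNT-8 icaritin libraries stood above all others (interaction 0.44, adjusted p = 0.0066, edgeR). KMT2A, a paralog of KMT2B, had fold changes of 0.27 and 0.00, ARID3B 0.29 and 0.00, and MBD6, of the methyl-CpG binding domain family, 0.76 and 0.40. CCDC88C, a regulator of WNT and G protein signalling, rose by 0.61 and 0.23, and ITPR3, a calcium channel of the endoplasmic reticulum, by 0.48 and 0.19. DENND2B, a Rab exchange factor, rose by 0.90 and 0.52, PARP6, an ADP-ribosyltransferase, by 0.86 and 0.39, and SIPA1L1, a Rap GTPase activator, rose in SNT-8 (0.41) with 0.10 in SNT-16. The calls of KMT2A, ARID3B, MBD6, ITPR3, SIPA1L1 and DENND2B ended with GC and length trends removed (adjusted p = 0.235, 0.0612, 0.0589, 0.162, 0.126 and 0.0584, edgeR), and they were lost in 8, 10, 6, 8, 8 and 9 of the 12 fits without a library, in that order; that of PARP6 was lost in 8. MBD6 was not past the threshold with all 18 libraries in the fit either (adjusted p = 0.0828, edgeR). KMT2A, MBD6 and ITPR3 overlap TTC36-AS1, DCTN2 and ITPR3-AS1.

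The remaining genes lower in SNT-8 have no common list. TFRC, the transferrin receptor, went from 628, 631 and 682 to 462, 382 and 438 CPM in SNT-8 and from 653, 671 and 664 to 546, 581 and 583 in SNT-16. It fell in both lines and farther in SNT-8 (interaction -0.38, adjusted p = 0.0141, edgeR). CSTF3, a subunit of the polyadenylation machinery, had fold changes of -1.11 and -0.54, DHRS2, a short-chain dehydrogenase, of -1.23 and -0.89, and EEF1E1, a scaffold of the tRNA synthetase complex, of -0.72 and -0.29; the last overlaps the readthrough gene EEF1E1-BLOC1S5. GDF11, a ligand of the TGF-beta family, fell in both (-1.27 and -0.74); it overlaps SARNP. TMEM273 fell in both (-0.72 and -0.29). In the 12 fits without a library the TFRC call was lost in 6 (adjusted p up to 0.097, edgeR), and those of CSTF3, DHRS2, EEF1E1, GDF11 and TMEM273 in 2, 6, 8, 7 and 3. With GC and length trends removed, TFRC and EEF1E1 were not past the threshold (adjusted p = 0.0612 and 0.0642, edgeR).

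A further 5 genes fell in SNT-8 and were not past the threshold in SNT-16. ISOC1 had fold changes of -0.40 and 0.10, GNG10, a G protein gamma subunit, -0.58 and -0.11, GPR180 -0.47 and -0.08, and CYRIB, which restrains RAC1, -0.38 and -0.08. The last of the 5, TMEM183BP, a near-identical copy of TMEM183A, was listed at 0 in all 3 SNT-8 icaritin libraries, against 3.91, 7.35 and 3.48 CPM with DMSO, and 12.8, 9.77 and 10.3 and 13.4, 11.9 and 10.7 in SNT-16. TMEM183A itself had an interaction of 0.12 (adjusted p = 0.56, edgeR). How the counting split reads between the copies is not given in the sources used here, so no fold is stated for TMEM183BP. Another 3 genes rose in SNT-16 more than in SNT-8: SLC25A40, a mitochondrial glutathione carrier, by 0.71 against 0.34, TMEM30A, a subunit of phospholipid flippases, by 0.52 against 0.17, and BCAP29, an endoplasmic reticulum protein, by 0.38 with -0.01. POLR2J3, a member of a multi-copy family, and SPECC1L-ADORA2A, a readthrough gene that overlaps SPECC1L and ADORA2A, had interactions of 0.41 and 0.49, which are uncertain for that reason. Leaving out 1 library ended the calls of GNG10, GPR180, CYRIB, SLC25A40, TMEM30A, BCAP29, POLR2J3 and SPECC1L-ADORA2A in 9, 6, 8, 10, 11, 2, 8 and 9 of 12 fits. The fit of all 18 libraries ended those of SPECC1L-ADORA2A and TMEM183BP (adjusted p = 0.0547 and 0.24, edgeR), and removing GC and length trends ended those of GNG10, CYRIB, SLC25A40 and SPECC1L-ADORA2A (adjusted p = 0.0551, 0.0551, 0.114 and 0.0612, edgeR).

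**Figure D3:**
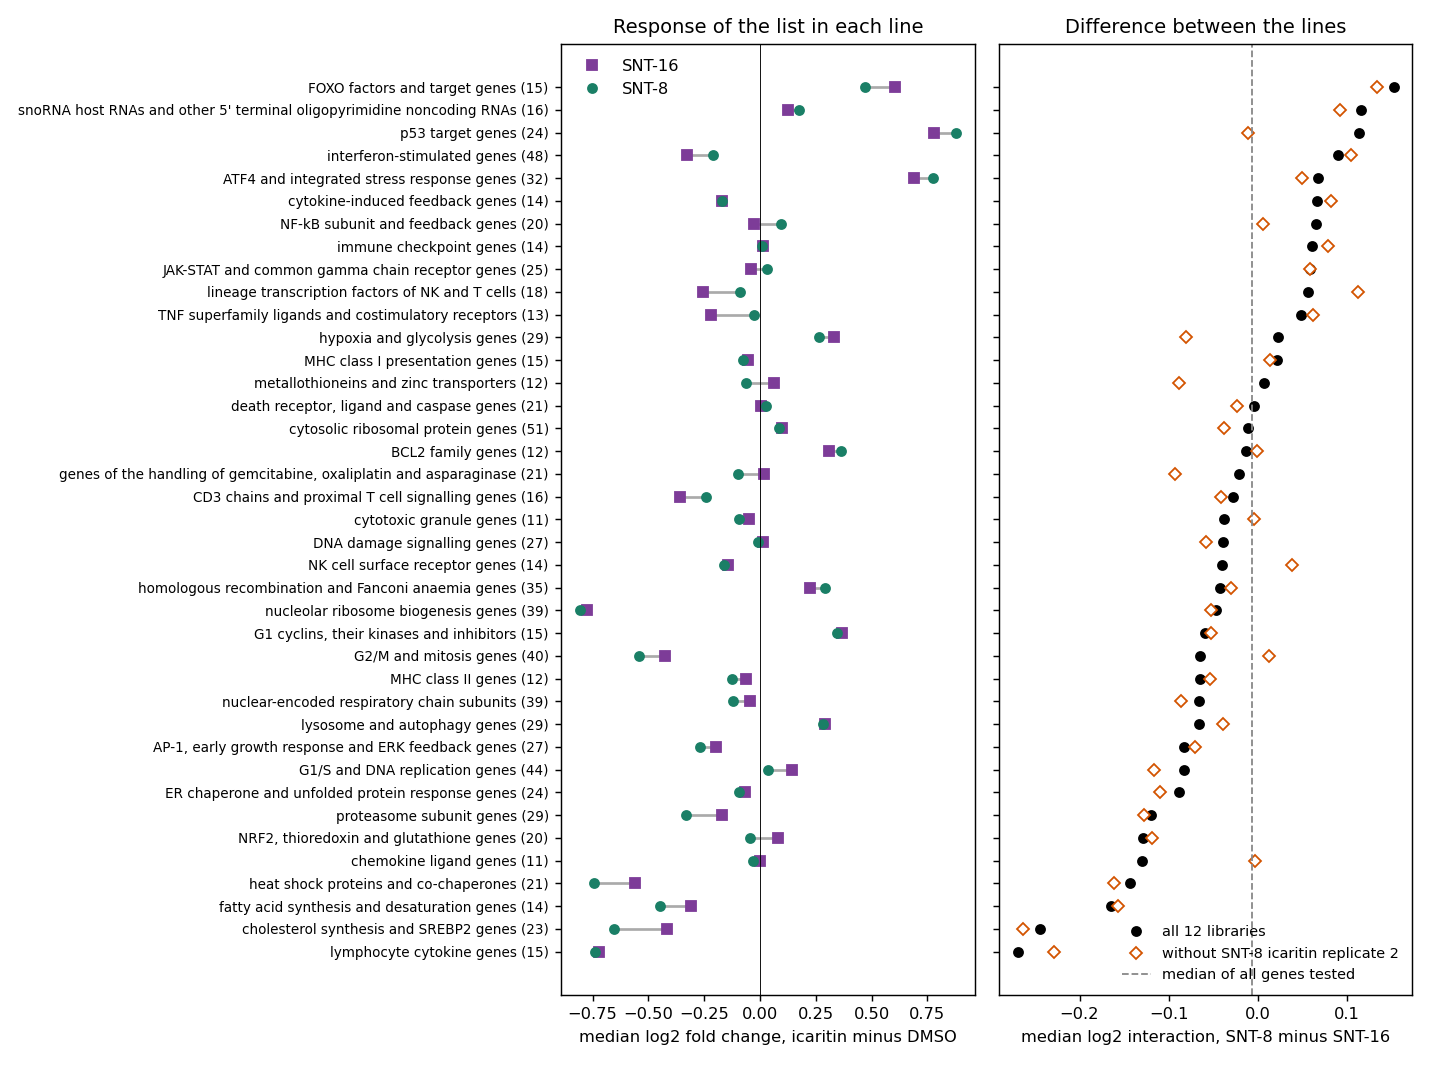
Gene lists of at least 10 tested genes (number in brackets), ordered by median interaction. Left, median log2 fold change of icaritin over DMSO in SNT-16 (purple) and SNT-8 (green); right, median interaction with all 12 libraries (black) and without SNT-8 icaritin replicate 2 (open), with the median of all genes dashed. Cytokine and cholesterol genes stand lowest, at -0.27 and -0.24. Between the 2 fits the median of p53 target genes goes from 0.11 to -0.01 and that of chemokine genes from -0.13 to 0.00.

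Hypoxia and glycolysis genes leaned higher in SNT-8 with replicate 2 of its icaritin libraries and lower without it. Of 29 hypoxia and glycolysis genes, 18 had an interaction above 0 with it and 5 without it, none past the threshold in either fit. The median response of that list was 0.21, 0.43 and 0.24 in SNT-8 and 0.25, 0.33 and 0.34 in SNT-16. Of 12 MHC class II genes all had an interaction below 0 with all libraries, 11 without that one, and 11 with upper-quartile scaling; none was past the threshold. Medians of the FOXO target list ran against each other: its median interaction was 0.15, while its median response was 0.47 in SNT-8 and 0.61 in SNT-16. In other lists most members moved alike in both lines. Of 39 nucleolar ribosome biogenesis genes, 37 fell in SNT-8 and 38 in SNT-16, beside 26.9% and 23.0% of all genes. Their median interaction was -0.05, with 41.0% above 0. Of 32 ATF4 and integrated stress response genes, 28 rose in each line, beside 25.1% and 21.2% of all genes. Their median interaction was 0.07, with 62.5% above 0 beside 48.5% of all genes. No member of either list was past the threshold with all libraries. Without replicate 2, 1 ribosome biogenesis gene was lower and 1 stress response gene higher.

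**Figure D4:**
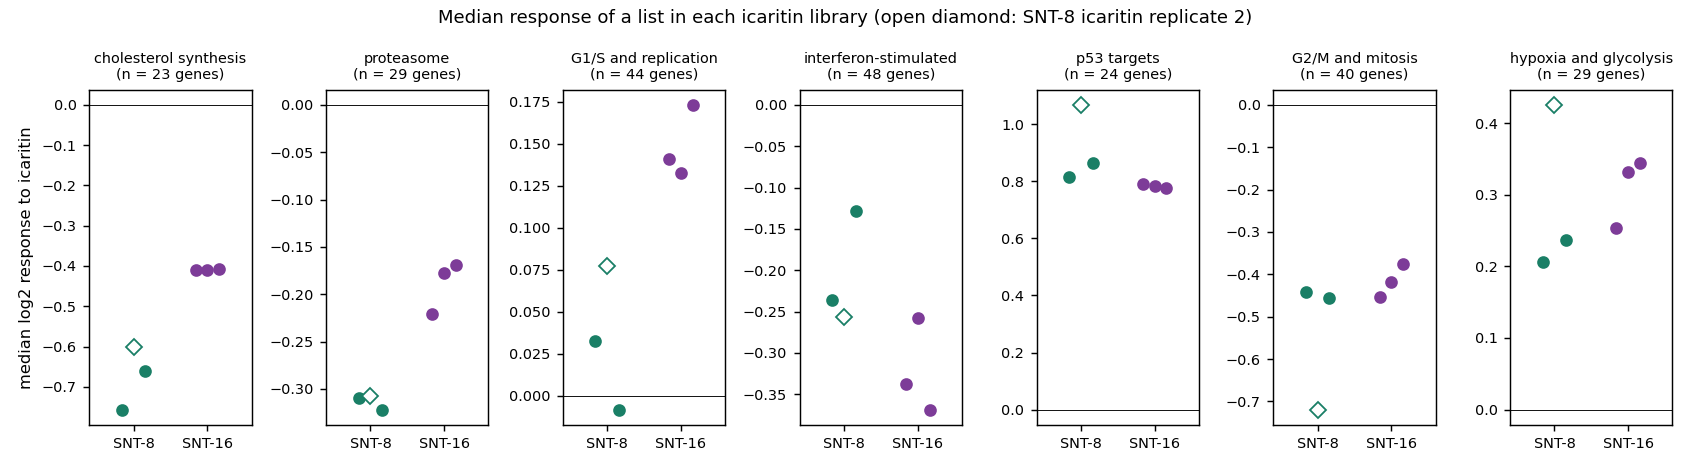
Median log2 response of 7 gene lists in each icaritin library against the mean DMSO level of its line (green, SNT-8; purple, SNT-16; open diamond, SNT-8 replicate 2; each panel has its own scale). The lines are apart in every library for cholesterol, proteasome and G1/S genes, while replicate 2 stands alone for p53 target and G2/M genes.

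The interaction also ran with base composition. The 22 genes higher in SNT-8 had a median transcript GC content of 56.8%, the 31 lower genes 42.6% (30 with a value) and all genes 49.3%. Median lengths were 4238, 2974 and 2905 nucleotides. From the tenth of genes with the lowest GC content to the highest, the median interaction went from -0.08 to 0.02, and from -0.10 to 0.04 without replicate 2 of SNT-8 with icaritin. With both trends removed, IFNG stood at -0.76, CCNE1 at -0.57, LSS at -0.58, DUSP5 at 0.57 and SERPINB9 at 0.54, all past the threshold, and the medians of the cholesterol, proteasome and G1/S lists were -0.21, -0.11 and -0.09.

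**Figure D5:**
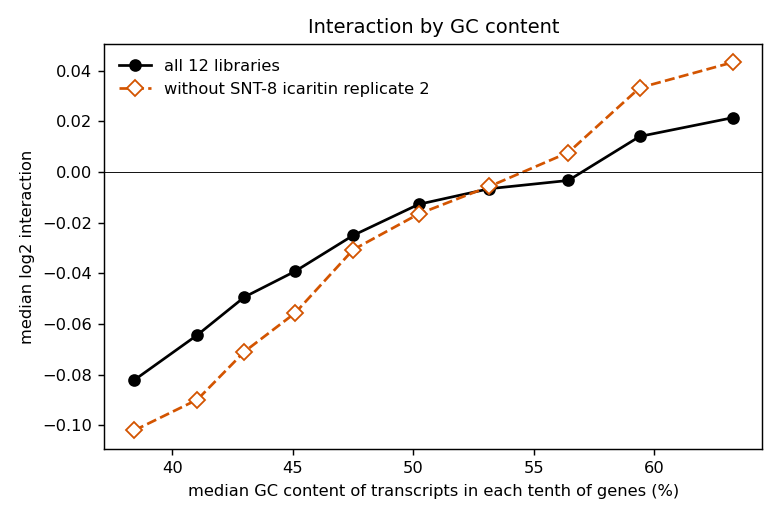
Median log2 interaction of genes of at least 10 CPM in 10 equal groups by transcript GC content (x axis, median GC of each group), with all 12 libraries (black) and without SNT-8 icaritin replicate 2 (open). The median goes from -0.08 in the lowest group to 0.02 in the highest.

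The lines were close before treatment, and no label says whether their identity was checked. In DMSO 1900 genes differed past the threshold (14.0%), yet none at 20 CPM or more in one line was over 4-fold lower in the other, and 6 and 12 genes were over 2-fold lower in SNT-16 and in SNT-8. Of the 53 genes, 22 differed in DMSO, 21 of them with the sign opposite to their interaction, as in IFNG, IDI1, LSS, BBC3 and XAF1 here. The DMSO libraries enter both values, so this count is a description and supports nothing about the response.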

How the data were processed

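RNA-seq gene tables of 12 libraries were used. Trizol was used to extract total RNA and an MGIEasy kit to make libraries, per the labels; the submitters' processing notes name Bowtie2 and HISAT without versions. The sources used here do not give the genome build, the counting tool or its use of strand. The authors deposited, per the file headers, expected counts (estimated fragments per gene, not scaled) and FPKM. Gene symbols were matched for 21583 of 21662 IDs through the reference tables.

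Expected counts were rounded and tested with edgeR 4.0.16 (R 4.3.3): filterByExpr (minimum count 10, total 15), TMM scaling, robust quasi-likelihood F tests with one mean per group and 8 residual degrees of freedom, two-sided, Benjamini-Hochberg over 13566 genes, threshold 0.05. CPM are TMM-scaled; the SE of a log2 fold change is its size over the square root of F. The response of a library is its log2 CPM (prior count 2, TMM factors over all 18 libraries) minus the mean DMSO value of its line. Alternatives used DESeq2 1.42.0, limma 3.58.1 on log2(FPKM + 1), other scalings and filters, a replicate block, all 18 libraries and each library left out. The fit was also run on counts simulated from its own means and spread, with a known interaction in some genes. No simulated library was made to stand apart, so that run cannot speak to replicate 2 of SNT-8 with icaritin.

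The members and gene lists were chosen with earlier results of these data known. Genes named were PLK1, the called genes of at least 10 CPM with the 12 largest interactions in each direction, the 8 smallest p or opposite directions in the lines, and up to 4 members of each list by smallest p; the other genes were named after their values were seen, to account for others of the 53 or for those called without replicate 2 of SNT-8 with icaritin. Some genes of the lists are counted but not reported here.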

Additional observations from a re-analysis of the deposited data

Results flagged for a closer look

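By the interaction term in edgeR's quasi-likelihood test, the icaritin effect differed between SNT-8 and SNT-16 for 53 genes, and 34 of them are named here by the naming rule with their log2 interaction. All 34 kept their direction in every alternative run. They were lower in SNT-8 for IFNG (-0.88), CYP19A1 (-0.64), CSTF3 (-0.57), CCNE1 (-0.55), AIM2 (-0.55), LSS (-0.54), GDF11 (-0.53), ISOC1 (-0.50), CCNE2 (-0.47), GNG10 (-0.47), TMEM273 (-0.43) and EEF1E1 (-0.43). Smaller negative values were those of TNFSF14 (-0.42), IDI1 (-0.38), TNFSF10 (-0.38), ARF4 (-0.34), RRM2 (-0.31) and HSPH1 (-0.27).

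They were higher in SNT-8 for CHST6 (0.93), BBC3 (0.74), DUSP5 (0.58), SERPINB9 (0.54), SPECC1L-ADORA2A (0.49), PARP6 (0.47), LENG8 (0.47), HIVEP1 (0.44), XAF1 (0.42), POLR2J3 (0.41), CCDC88C (0.39) and DENND2B (0.38). Smaller positive values were those of KMT2B (0.33), TYK2 (0.32), STAT5A (0.32) and PIM2 (0.25). With 3 libraries in a group, single libraries were not tested as outliers.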

How the results depend on the processing

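The count of 53 genes (22 higher, 31 lower in SNT-8) depended on the test and the libraries, while no called gene changed sign under any alternative. It was 97 (44 and 53) with DESeq2, 245 (137 and 108) with no filter on low counts, and 13 (9 and 4) with limma on log2(FPKM + 1), where 8 of the 53 were called. Upper-quartile factors gave 39 higher genes. With trends on GC content and length removed and without replicate 2 of SNT-8 with icaritin, an alternative chosen after seeing the data, it was 296 (92 and 204). Leaving out 1 library at a time gave 18 to 335 genes, 8 to 148 higher and 10 to 187 lower. The counts without SNT-8 icaritin replicates 1, 2 and 3 were 130, 335 and 112, and those without an SNT-8 DMSO library 26 to 35. Without SNT-16 DMSO replicates 1, 2 and 3 they were 30, 20 and 21, and without SNT-16 icaritin replicates 1, 2 and 3 they were 49, 18 and 21. Each fit without a library also had fewer libraries in that group. The cause of these changes was not tested.

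Size factors of the RLE method, all 18 libraries, leaving out mitochondrial RNAs, or removing the GC and length trends gave 48 to 63 genes, and 46, 53 and 35 of the 53 genes stayed called under the last 3. The ratio of the SDs of the fold changes, SNT-8 to SNT-16, was 1.20 and became 1.05 with no filter. Deviations of same-numbered DMSO and icaritin libraries had correlations of -0.106 to 0.0567, and those of different-numbered ones -0.0851 to 0.0853. With 3 libraries in a group this cannot tell whether the numbers pair the libraries. A fit with the replicate number as a block within each line called 57 genes (27 higher, 30 lower), 41 of them among the 53. With GC and length trends also removed that fit called 53. At 9629842 to 10100453 counts a library the median SE of the interaction was 0.10 over genes of at least 10 CPM. LSS and CCNE1, each with an SE of 0.10, were called at -0.54 and -0.55. The smallest called interaction, 0.25 for PIM2, is not the size at which a gene with the median SE would be called.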
